A study of Rattus norvegicus with 24 samples.

Results

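The proliferative zone of the growth plate was set against the resting zone that lies above it. Of the 24 arrays, 10 belonged to this comparison: 5 from the proliferative zone and 5 from the resting zone, chosen by the zone named in their titles and paired by animal number. Both zones came from the proximal tibiae of the same 5 male rats, which were 7 days old, carried no treatment and had not been castrated. Cartilage was cut into frozen sections of 60 µm, stained, and separated by hand under a microscope, so a zone is what the blade took and not a sorted cell type. In a whole-zone sample, fewer cells of a type and less RNA per cell cannot be told apart. The other 14 arrays, from the transition zone, the hypertrophic zone and epiphyseal cartilage of these rats, entered the estimate of the spread, the filter on low signal and the choice of a gene's probe set, and their levels are given at the end. The study's title places the comparison within a question on Indian hedgehog signalling in the growth plate after birth.

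The growth plate is the cartilage that lengthens long bones. Its resting zone holds slowly cycling chondrocytes, among them cells that act as progenitors, and its proliferative zone holds flattened chondrocytes that divide and stack into columns before they enlarge in the hypertrophic zone. Indian hedgehog, made by cells leaving the cycle, and parathyroid hormone-related protein, made near the top of the plate, form a feedback loop that sets how long column cells keep dividing. Bone morphogenetic proteins (BMPs), Wnt proteins, fibroblast growth factors and insulin-like growth factors act beside this loop.

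Values were MAS5 signals, the array maker's linear intensity per probe set, with nearly the same trimmed mean in every array as deposited. Of 31042 probe sets that are not controls, 19213 passed a filter on low signal and were tested, and they covered 10558 genes with a single symbol, each represented by its brightest probe set. A difference is given as log2(signal + 16), proliferative minus resting, with its standard error. A gene was called when limma's adjusted p was below 0.05 and the fold was at least 2. On this scale the change of dim genes is understated. Signals are listed for animals 1 to 5 in that order, and n = 5 per zone unless another number is given.

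The 10 arrays held cartilage RNA, and some of the resting zone arrays also held more signal of skeletal muscle and osteoclast markers. The 8 tested chondrocyte markers had a mean log2 signal of 15.08 ± 0.44 in the proliferative zone and 15.01 ± 0.33 in the resting zone (SD), a difference of 0.08 that was not called for any of the 8. Col2a1, the main cartilage collagen, differed by -0.09 on the log2 scale (adjusted p = 0.85), with signals of 120176, 50012, 39547, 60931 and 75975 in the proliferative zone, against 116840, 49112, 66571, 49174 and 79084 in the resting zone. The 18 tested skeletal muscle markers had a mean log2 signal of 8.48 ± 0.45 in the proliferative zone and 10.04 ± 1.56 in the resting zone, and 9 of the 18 were called lower. The within-animal differences of this mean were -1.52, -0.18, -3.40, -0.41 and -2.33, so the resting arrays of animals 1, 3 and 5 stood apart from those of animals 2 and 4. The summed signal of the list ran from 22500 to 41610 in the proliferative zone and from 21820 to 130200 in the resting zone. Myh1, the 1 member with a difference above 0, was a bright part of these sums (0.52 ± 0.21, adjusted p = 0.0972). It had 20416, 15925, 14657, 25484 and 26335 in the proliferative zone, against 13100, 8771, 13529, 19076 and 17508 in the resting zone. Its 5 probe sets differed by 0.48 to 0.61. Acta1, skeletal muscle actin, showed the split between resting arrays with signals of 6342, 1244, 1983, 2119 and 3496 in the proliferative zone, against 14121, 1353, 32950, 1888 and 17697 in the resting zone. Its call was lost without animal 1, 3 or 5 (adjusted p = 0.0833, 0.331 and 0.12), with the animal as a random block at the estimated correlation (adjusted p = 0.108) and without the replicate block (adjusted p = 0.234).

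Tnni2, fast troponin I, showed that split less, with its lowest resting signals in animals 2 and 4 and all resting signals above the proliferative ones. It had signals of 1892, 1858, 1037, 1057 and 1879 in the proliferative zone, against 11368, 7061, 8349, 7976 and 12845 in the resting zone, and fell by 2.63 ± 0.16 (adjusted p = 9.41e-11) with no overlap between the zones. The 8 osteoclast and macrophage markers averaged 7.34 ± 0.42 in the proliferative zone and 8.38 ± 1.14 in the resting zone, with the largest within-animal difference, -2.41, in animal 1. Summed signals of these 8 ran from 777 to 1702 in the proliferative zone and from 1569 to 25650 in the resting zone. Perichondrium and fibroblast markers (12 tested), osteoblast markers (5), erythroid markers (5) and leukocyte markers (7) were lower in the proliferative zone in all 5 animals by 0.70, 0.60, 0.67 and 0.77 on average. Called lower were 3 perichondrium markers (Pdgfra, Col14a1 and Scx), 1 osteoblast marker (Ibsp), 1 osteoclast marker (Mmp9), 2 leukocyte markers (S100a8 and S100a9) and 0 erythroid markers, and 1 perichondrium marker, Thy1, was called higher. Leaving out 1 animal ended the calls of S100a8 and S100a9 without animal 1, 3 or 4 (adjusted p = 0.119, 0.24 and 0.117 for S100a8, and 0.0847, 0.137 and 0.0702 for S100a9), of Mmp9 without animal 1 (0.115) and of Ibsp without animal 3 or 4 (0.0591 and 0.0624). With the animal as a random block at the estimated correlation, S100a8 and S100a9 also lost their calls (adjusted p = 0.0832 and 0.0812), and without the replicate block they stood at adjusted p = 0.178 and 0.187. An exact sign-flip test over 5 animals cannot go below p = 0.0625, and the 14 such tests gave an adjusted p of 0.1094 or more. Control probe sets at either end of a transcript report on RNA integrity, and their log2 3'/5' signal ratio was 4.47 ± 0.31 in the proliferative zone and 4.03 ± 0.25 in the resting zone for actin, and 2.67 ± 0.34 and 2.76 ± 0.40 for Gapdh. The actin ratio was higher in the proliferative zone in all 5 animals, by 0.44 on average, and the Gapdh ratio was higher there in 1. The part of these marker differences and of RNA quality in the gene differences below was not tested, and counts of list members are also given below without the resting arrays of animals 1, 3 and 5, which leaves 2 resting arrays.

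**Figure D1:**
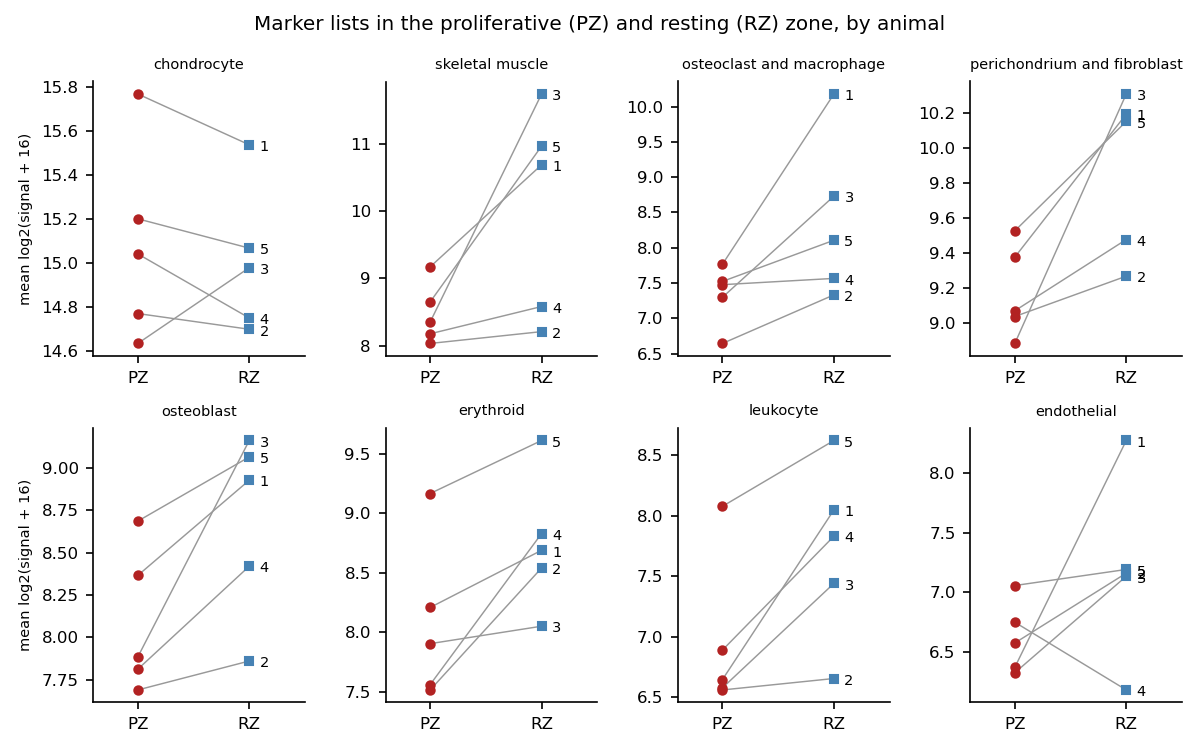
Mean log2(signal + 16) of the tested markers of 8 cell type lists, in the proliferative zone (PZ, red circles) and the resting zone (RZ, blue squares). Each line joins the zones of 1 animal and its number stands at the resting end. Chondrocyte markers differ by 0.08 on average, while skeletal muscle markers are high in the resting arrays of animals 1, 3 and 5.

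Across the array, 378 probe sets (1.97%) were called higher and 792 (4.12%) lower in the proliferative zone, 6.09% together. In genes, 227 (2.15%) were higher and 420 (3.98%) lower, 6.13% of the 10558 tested in all, and 604 of the 647 called genes moved the same way in all 5 animals. The median difference over all genes was 0.02. When every array was scaled to one median instead, 494 probe sets were called higher and 665 lower, so the share of calls that were higher was 42.6% in place of 32.3%. The calls without the resting arrays of animals 1, 3 and 5 were 260 higher and 404 lower of 19213 probe sets, and 574 of the 1170 calls were shared. List counts given below for that setting stand against these lower totals. Signals of the 2 zones did not overlap for 476 genes that were higher (4.51%) and 567 that were lower (5.37%). Of the called probe sets, 352 carried no gene symbol and 9 carried several, and these are not named.

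**Figure D2:**
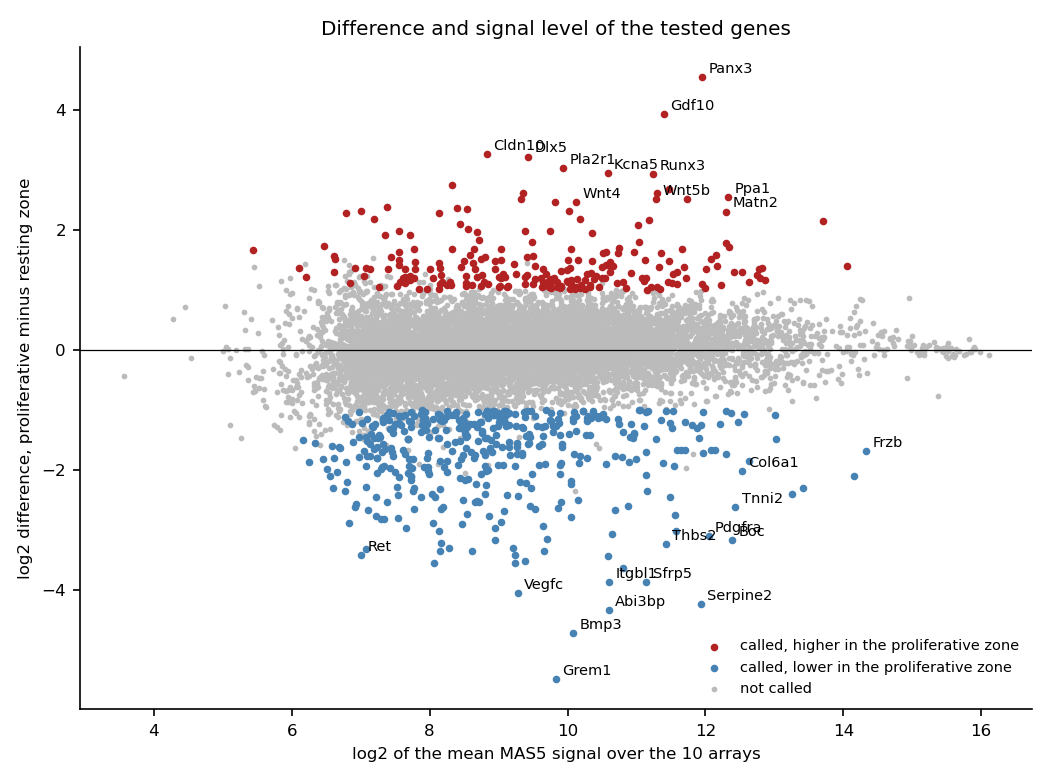
Log2 difference, proliferative minus resting zone, of the 10558 tested genes against the log2 of their mean signal over the 10 arrays. Red points are the 227 genes called higher in the proliferative zone, blue points the 420 called lower and grey points the rest, and Panx3 and Grem1 lie at the ends.

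The largest rise was that of Panx3, a channel protein of the pannexin family known from chondrocytes and osteoblasts. It had signals of 10414, 10486, 5599, 6611 and 5110 in the proliferative zone, against 298, 377, 237, 390 and 223 in the resting zone, a 23.3-fold difference (4.54 ± 0.28, adjusted p = 9.41e-11). The zones were far apart in every animal. Runx3, a Runt family transcription factor of maturing chondrocytes, had 4799, 2818, 5486, 4415 and 3951 in the proliferative zone, against 356, 699, 567, 596 and 528 in the resting zone (2.93 ± 0.17, adjusted p = 4.84e-11). Its other probe set differed by 0.81 and was not called. Dlx5, a homeobox factor that promotes chondrocyte and osteoblast maturation, had 1327, 1205, 1344, 1177 and 1074 in the proliferative zone, against 16, 173, 104, 278 and 178 in the resting zone (3.22 ± 0.33, adjusted p = 1.68e-07). Neither overlapped between zones. Ppa1, the cytosolic pyrophosphatase that splits inorganic pyrophosphate, rose 5.84-fold (2.55 ± 0.18, adjusted p = 5.94e-10).

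Also among the 20 largest rises, Cldn10, a tight junction claudin, had 1151, 750, 781, 912 and 585 in the proliferative zone, against 87, 118, 69, 35 and 65 in the resting zone (3.26 ± 0.31, adjusted p = 4.55e-08). Kcna5, a voltage-gated potassium channel, had 2276, 4349, 2048, 2118 and 2761 in the proliferative zone, against 131, 444, 236, 469 and 526 in the resting zone (2.95 ± 0.28, adjusted p = 3.4e-08). Both were apart in all 5 animals. Pla2r1, the receptor of secreted phospholipase A2, rose 8.19-fold, Pltp, the phospholipid transfer protein, 6.11-fold, and Scd, the desaturase that makes monounsaturated fatty acids, 5.53-fold. Car8, which resembles carbonic anhydrases but lacks their activity, rose 6.39-fold, and Fabp6, a bile acid binding protein of the ileum, rose 6.69-fold. The call of Fabp6 was lost without the resting arrays of animals 1, 3 and 5 (2.04, adjusted p = 0.11). Olfml3, a secreted olfactomedin-domain protein, Rnf182, a ubiquitin ligase, Cpa6, a carboxypeptidase, Vstm4, an immunoglobulin-domain membrane protein, Pik3ap1, an adaptor of phosphoinositide 3-kinase, and Pcdh17, a protocadherin, rose by 2.34 to 2.60 on the log2 scale. The zones did not overlap for any of the 20, which were chosen for the size of their difference.

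The largest fall was that of Grem1, a secreted antagonist of BMPs that marks skeletal progenitors in mice. It had signals of 7, 9, 86, 8 and 43 in the proliferative zone, against 1128, 1261, 2059, 2441 and 2048 in the resting zone (-5.49 ± 0.39, adjusted p = 5.19e-10). Such low signals carry little order, and the difference was -6.46 with a pseudocount of 1 and -4.30 with a pseudocount of 64. Abi3bp, an extracellular matrix protein, had 121, 172, 56, 153 and 156 in the proliferative zone, against 3499, 4290, 1795, 2366 and 2894 in the resting zone (-4.35 ± 0.32, adjusted p = 6.8e-10). Serpine2, an inhibitor of serine proteases in the matrix, had 494, 287, 486, 235 and 351 in the proliferative zone, against 12629, 7280, 5777, 6376 and 5076 in the resting zone (-4.24 ± 0.33, adjusted p = 1.86e-09). The zones of all 3 genes were separate in every animal.

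Among the other large falls, Itgbl1, a protein with integrin beta-like repeats, Efemp1, the matrix protein fibulin-3, and Cldn11, a claudin, fell 14.7-fold, 12.4-fold and 11.5-fold. Negr1 and Lrrn3, neuronal membrane proteins, Nptx1, a pentraxin of synapses, and Ret, the receptor kinase of the glial cell line-derived factors, fell, with log2 differences of -3.55, -3.36, -3.45 and -3.43. Ret had signals of 13, 2, 6, 7 and 4 in the proliferative zone, against 66, 373, 296, 287 and 236 in the resting zone, so its difference is a level near the bottom of the scale against a modest one (-5.11 with a pseudocount of 1 and -2.06 with 64). Lratd1 had 98, 29, 6, 17 and 86 in the proliferative zone, against 624, 551, 527, 466 and 422 in the resting zone (-3.35 ± 0.34, adjusted p = 1.2e-07). F13a1, the transglutaminase subunit of coagulation factor XIII, had 92, 129, 49, 93 and 47 in the proliferative zone, against 2363, 957, 745, 1038 and 521 in the resting zone (-3.42 ± 0.31, adjusted p = 1.62e-08). Neither gene's zones overlapped.

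Of the 20 largest falls, 3 are known best from muscle: Casq1, the calcium store protein of skeletal muscle, Tnnt2, cardiac troponin T, and Myzap, a protein of cardiac cell junctions. Casq1 had 166, 63, 158, 149 and 94 in the proliferative zone, against 1397, 976, 2642, 810 and 1648 in the resting zone (-3.36 ± 0.32, adjusted p = 4.98e-08). The resting arrays of animals 2 and 4, which were low in the mean of the muscle markers, had the lowest Casq1 of the resting arrays. Both lay above every proliferative array. The part of muscle marker signal in the fall of Casq1 was not tested. Tnnt2 had 19, 6, 8, 14 and 5 in the proliferative zone, against 226, 153, 426, 238 and 251 in the resting zone.

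**Figure D3:**
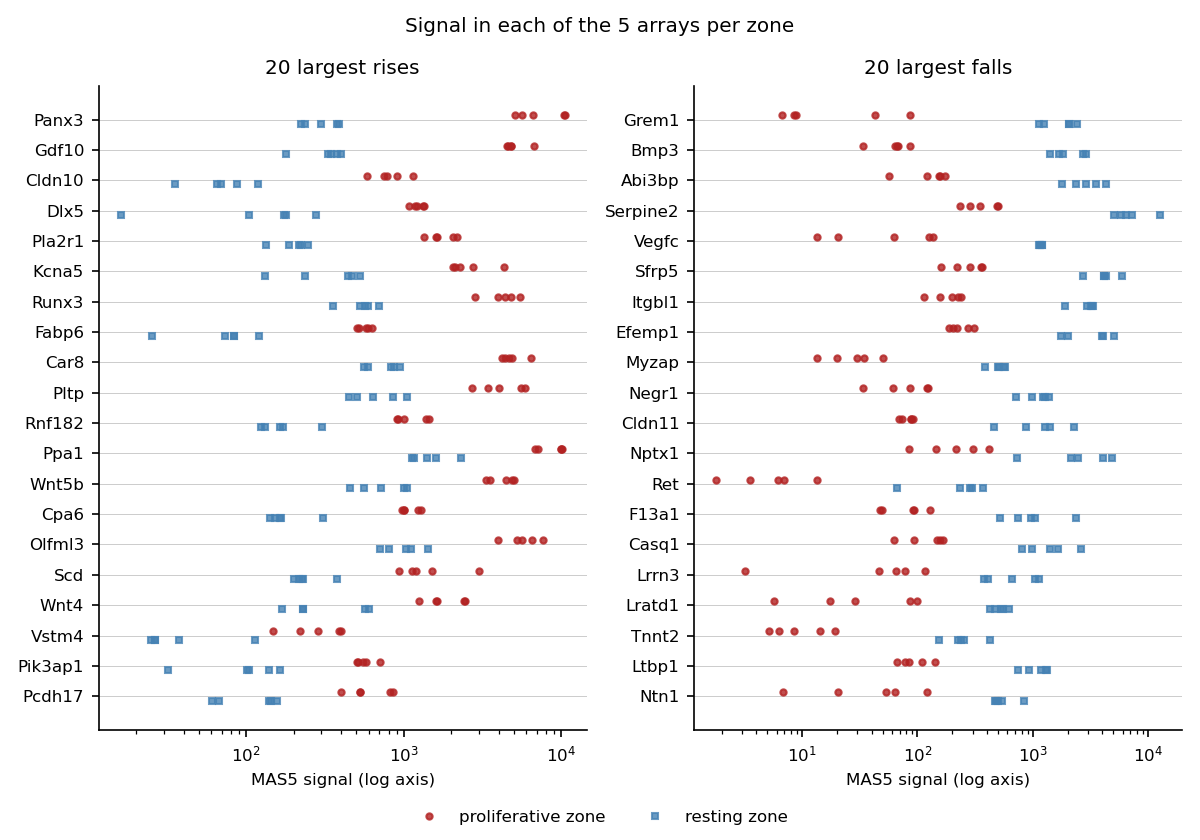
MAS5 signal on a log axis for the 20 largest rises (left) and the 20 largest falls (right), ordered by size. Each of the 5 red circles is a proliferative zone array and each of the 5 blue squares a resting zone array. For each of the 40 genes the circles and squares form separate clusters.

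The hedgehog list held ligands, receptors, transducers and targets, with 12 of its 20 members tested. Of these 12, 2 were called higher and 3 lower, where 2.15% of all genes were higher and 3.98% lower. Counts of every list below stand against the same shares, 6.13% together. The lists were chosen with earlier results of these data known, so a share above these was not tested as an excess. Ihh, the Indian hedgehog ligand itself, had 1086, 696, 163, 665 and 566 in the proliferative zone, against 136, 168, 127, 199 and 173 in the resting zone (1.68 ± 0.40, adjusted p = 0.00504). It was higher in each animal, but by little in animal 3, whose proliferative array lay among the resting ones. Gli1, the transcription factor that is both a mediator and a target of the pathway, had 1768, 1494, 1088, 2702 and 2452 in the proliferative zone, against 934, 633, 538, 1080 and 1376 in the resting zone (1.05 ± 0.31, adjusted p = 0.0236). It was higher in all 5 animals although the zones overlapped. The call of Gli1 was lost without the replicate block (adjusted p = 0.073) and without animal 1, 3 or 4 (1.09, 1.07 and 0.99 on the log2 scale, adjusted p = 0.0591, 0.0758 and 0.049).

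The 3 members called lower were Boc, Hhip and Gli2. Boc, a cell surface co-receptor for hedgehog proteins, had 1123, 652, 1470, 1200 and 983 in the proliferative zone, against 10954, 8660, 10170, 9124 and 9432 in the resting zone, a 9.06-fold fall (-3.18 ± 0.29, adjusted p = 2.91e-08). Hhip, a membrane protein that sequesters hedgehog ligands, had 107, 131, 223, 143 and 210 in the proliferative zone, against 472, 609, 406, 385 and 611 in the resting zone (-1.54 ± 0.39, adjusted p = 0.00764). Gli2, the main activator downstream of the receptor, had 517, 854, 576, 1046 and 901 in the proliferative zone, against 1086, 1831, 1157, 2381 and 2176 in the resting zone (-1.11 ± 0.27, adjusted p = 0.00568). None of these 3 overlapped between zones. The call of Hhip was lost without animal 2 (-1.40, adjusted p = 0.0685).

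The other hedgehog members were not called. Kif7, a ciliary kinesin that regulates Gli proteins, differed by 0.75 ± 0.19 (adjusted p = 0.0102), below the fold threshold. Smo, the signal transducer of the pathway, differed by -0.44 ± 0.17 (adjusted p = 0.0986) and Sufu, a cytoplasmic inhibitor of Gli proteins, by 1.14 ± 0.47 (adjusted p = 0.113). Pth1r, the receptor of parathyroid hormone-related protein, had 8822, 7816, 4536, 7739 and 6421 in the proliferative zone, against 5750, 5169, 4450, 8569 and 5648 in the resting zone (0.26 ± 0.16, adjusted p = 0.343). Dhh, the desert hedgehog ligand, Disp1, which releases ligand, and Stk36, a kinase of the pathway, differed by 0.05, -0.01 and 0.03 (adjusted p of 0.966 or more). Without the resting arrays of animals 1, 3 and 5, 0 members were called higher and 1, Boc, lower, with Ihh at 1.32 (adjusted p = 0.23), Gli1 at 1.32 (adjusted p = 0.12), Hhip at -1.38 (adjusted p = 0.24) and Gli2 at -1.14 (adjusted p = 0.11).

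Among BMP and growth and differentiation factor ligands, 3 of 9 tested were called higher and 1 lower, where 2.15% of all genes were higher and 3.98% lower, and 2 and 1 were called without the resting arrays of animals 1, 3 and 5. Gdf10, a BMP-family ligand closest to Bmp3, had 4594, 4780, 6738, 4822 and 4494 in the proliferative zone, against 179, 397, 377, 330 and 343 in the resting zone, a 15.3-fold rise (3.93 ± 0.36, adjusted p = 2.19e-08). Bmp3, a family member that opposes other BMPs, did the reverse, with 66, 63, 86, 33 and 68 in the proliferative zone, against 2708, 1408, 1834, 1691 and 2892 in the resting zone, a 26.4-fold fall (-4.73 ± 0.42, adjusted p = 1.41e-08). Neither gene's zones overlapped. Bmp2, which drives chondrocyte maturation, had 836, 1166, 1125, 1264 and 1038 in the proliferative zone, against 463, 396, 572, 580 and 557 in the resting zone (1.06 ± 0.19, adjusted p = 0.000247), and fell below the fold threshold without animal 2 (0.94, adjusted p = 0.00544). The other Bmp2 probe set differed by 0.32 and was not called. Bmp5 was called at 1.37 ± 0.45 (adjusted p = 0.0435), with low, overlapping signals of 143, 46, 57, 166 and 104 in the proliferative zone and 5, 17, 96, 17 and 38 in the resting zone. Its call was lost without animal 1, 2, 4 or 5 (adjusted p = 0.254, 0.0942, 0.174 and 0.086).

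Of 14 BMP antagonists and modulators, 4 were called lower and 1 higher, and the same counts were found without the resting arrays of animals 1, 3 and 5. Grem1 was among those lower. Chrd, chordin, which binds BMPs outside the cell, had 245, 204, 189, 216 and 328 in the proliferative zone, against 961, 724, 792, 604 and 459 in the resting zone (-1.50 ± 0.27, adjusted p = 0.000403). Crim1, a transmembrane BMP-binding protein, fell 2.3-fold, and Smoc1, a matrix protein that inhibits BMP signalling, fell by 1.01 ± 0.20, or by 0.98 without animal 5. The one member called higher was Htra3, a secreted serine protease, with 2104, 1632, 2726, 1805 and 1884 in the proliferative zone, against 1020, 643, 825, 994 and 909 in the resting zone (1.19 ± 0.15, adjusted p = 5.15e-06). Of the 3 Htra3 probe sets 1 was called, and the lowest differed by 0.23. All 5 genes had separate zones.

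Inside the cell, 2 of 15 BMP receptors, Smad and Id genes were called, both higher, also without the resting arrays of animals 1, 3 and 5. With all arrays that is 13.3% of the list, against 6.13% of all genes. Smad1, which carries the BMP signal to the nucleus, had 2694, 2290, 2425, 2773 and 1303 in the proliferative zone, against 796, 690, 694, 676 and 685 in the resting zone (1.63 ± 0.19, adjusted p = 7.96e-07). The zones were separate for this probe set, and the other Smad1 probe set differed by 0.75 and was not called. Smad9, a close relative, rose by 1.02 ± 0.25 (adjusted p = 0.006), and its call was lost without animal 3 or 4 (0.85 and 0.98, adjusted p = 0.0694 and 0.0098). Id1, a target of BMP signalling, differed by 0.97 ± 0.20 (adjusted p = 0.00157), higher in all 5 animals but just short of the fold threshold. Of 11 transforming growth factor beta genes, 2 were called lower and 0 higher: Ltbp1, which tethers the latent ligand to the matrix, with 142, 85, 78, 67 and 109 in the proliferative zone, against 1166, 738, 1330, 1301 and 924 in the resting zone (-3.31 ± 0.30, adjusted p = 1.9e-08), and Smad3, which carries that ligand's signal (-1.09 ± 0.22, adjusted p = 0.00145). The call of Smad3 was lost without the resting arrays of animals 1, 3 and 5 (-0.81, adjusted p = 0.187). Ltbp3, a relative of Ltbp1, differed by -0.58 ± 0.17 (adjusted p = 0.024), below the fold threshold.

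Of the 6 Wnt ligands tested, 2 were called higher and 0 lower, where 2.15% of all genes were higher and 3.98% lower. Wnt5b, a ligand of the planar polarity branch, had 4481, 3529, 3316, 5021 and 4846 in the proliferative zone, against 455, 712, 556, 1053 and 1001 in the resting zone (2.51 ± 0.17, adjusted p = 2.01e-10). Wnt4 had 2436, 1601, 1245, 2420 and 1634 in the proliferative zone, against 599, 230, 169, 570 and 229 in the resting zone (2.46 ± 0.26, adjusted p = 2.07e-07). Both were separate between zones, and Wnt5a, another ligand of that branch, differed by 0.92 ± 0.42 (adjusted p = 0.159). Of 7 secreted Wnt inhibitors, 2 were called lower and 0 higher: Sfrp5, with 354, 221, 158, 362 and 286 in the proliferative zone, against 5893, 4179, 4120, 4298 and 2726 in the resting zone (-3.88 ± 0.33, adjusted p = 9.88e-09), and Frzb, with 12807, 13199, 8507, 6167 and 9165 in the proliferative zone, against 38189, 28367, 31868, 26018 and 31348 in the resting zone (-1.69 ± 0.17, adjusted p = 1.5e-07). Another inhibitor, Sfrp1, differed by -0.65 ± 0.18 (adjusted p = 0.0163), below the fold threshold. Its 3 probe sets differed by -0.65 to 0.08, and none was called. Counts for ligands and inhibitors were the same without the resting arrays of animals 1, 3 and 5. Among 17 Wnt receptors and targets, Fzd2, a frizzled receptor, fell by 1.13 ± 0.22 (adjusted p = 0.000834) and Tcf7, a nuclear effector, rose by 1.11 ± 0.32 (adjusted p = 0.0193). These calls are 11.8% of the list, against 6.13% of all genes. The call of Tcf7 was lost without animal 1, 2, 3 or 5 (adjusted p = 0.0591, 0.0774, 0.0832 and 0.0654) and without the resting arrays of animals 1, 3 and 5 (0.273). Lrp6, a Wnt co-receptor, differed by -0.69 ± 0.22 (adjusted p = 0.0403), and Axin2, a target and inhibitor of the pathway, by 0.87 ± 0.32 (adjusted p = 0.0713).

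Of 10 genes of the fibroblast growth factor system, 3 were called lower and 0 higher, the same counts as without the resting arrays of animals 1, 3 and 5. Fgfr1 had 451, 806, 491, 1125 and 1036 in the proliferative zone, against 2324, 2413, 2577, 2654 and 2707 in the resting zone (-1.77 ± 0.21, adjusted p = 1.28e-06). Fgfr2 had 829, 1016, 915, 1172 and 1290 in the proliferative zone, against 4326, 2633, 3400, 3942 and 3017 in the resting zone (-1.71 ± 0.17, adjusted p = 5.68e-08). Fgfr3, the receptor that restrains chondrocyte division, ran the other way with 32024, 31005, 17363, 19391 and 27674 in the proliferative zone, against 14010, 16008, 12138, 13265 and 14251 in the resting zone, and with a 1.78-fold difference it passed on p but not on fold (0.83 ± 0.17, adjusted p = 0.00154). None of these 3 overlapped. Fgfrl1, a receptor without a kinase, fell by 1.06 ± 0.20, and by 0.98 and 0.99 without animal 4 and 5.

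Of 20 genes acting in growth hormone and IGF (insulin-like growth factor) signalling, 5 were called lower and 1 higher. Pappa2, a protease that frees the growth factor from its binding proteins, had 163, 228, 212, 214 and 333 in the proliferative zone, against 1344, 1174, 1511, 950 and 967 in the resting zone (-2.30 ± 0.28, adjusted p = 2.31e-06). Ghr, the growth hormone receptor, had 288, 368, 343, 252 and 306 in the proliferative zone, against 755, 524, 950, 798 and 506 in the resting zone (-1.11 ± 0.21, adjusted p = 0.000577). Both were separate between zones, and Ghr stood at -0.99 without animal 4. Igf1, the growth factor, had dim signals of 19, 22, 13, 23 and 31 in the proliferative zone, against 250, 257, 339, 190 and 81 in the resting zone (-2.57 ± 0.55, adjusted p = 0.00208). The binding proteins Igfbp5 and Igfbp4 fell (-1.80 and -1.20), and their calls were lost without animal 1 for both and without animal 3 or 4 for Igfbp4 (adjusted p = 0.0591, 0.069, 0.143 and 0.05). Irs1, which relays the receptor's signal, rose by 1.08 ± 0.24, or by 0.96 without animal 3. Pappa2 alone of these kept its call without the resting arrays of animals 1, 3 and 5. Igf1 was then at -2.73 (adjusted p = 0.0531), Igfbp5 at -1.73 (0.114), Ghr at -0.84 (0.131), Igfbp4 at -0.79 (0.485) and Irs1 at 0.84 (0.219).

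The C-type natriuretic peptide system promotes bone lengthening through cyclic GMP. Of its 3 tested genes, Prkg2, the cyclic GMP-dependent kinase of chondrocytes, was called, with 1085, 1195, 680, 1536 and 960 in the proliferative zone, against 325, 412, 392, 444 and 386 in the resting zone (1.40 ± 0.21, adjusted p = 3.95e-05). Npr2, the receptor of the peptide, differed by -0.05 ± 0.15 (adjusted p = 0.889), and Npr3, which clears it, by 1.00 ± 0.49 at dim signals (adjusted p = 0.19). Npr3 was called without the resting arrays of animals 1, 3 and 5 (2.36, adjusted p = 0.0133). Among 13 Notch genes, Dlk1, a delta-like protein that can oppose Notch and is imprinted, had 256, 211, 176, 214 and 217 in the proliferative zone, against 586, 663, 712, 829 and 928 in the resting zone (-1.71 ± 0.26, adjusted p = 4.17e-05). It was the one Notch gene called, 7.69% of the list and near the 6.13% of all genes. Dlk1 was also the one called without the resting arrays of animals 1, 3 and 5. Neither Prkg2 nor Dlk1 overlapped between zones. Jag2, a Notch ligand, differed by -0.84 ± 0.25 (adjusted p = 0.0252), below the fold threshold, and Hes1, a target, by -1.26 ± 0.48 (adjusted p = 0.0818). In the retinoid list of 16, Rbp4, a retinol carrier, fell by 1.67 ± 0.25 (adjusted p = 3.51e-05). Rxrg, a retinoid X receptor, was called higher in the same list (1.46 ± 0.39, adjusted p = 0.013), and its call was lost without animal 2 or 4 (adjusted p = 0.113 and 0.0684). Thra, the thyroid hormone receptor alpha, differed by -0.88 ± 0.25 (adjusted p = 0.0178), below the fold threshold. In the retinoid list 1 was thus called higher and 1 lower, 12.5% against 6.13% of all genes. The same counts were found without the resting arrays of animals 1, 3 and 5.

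**Figure D4:**
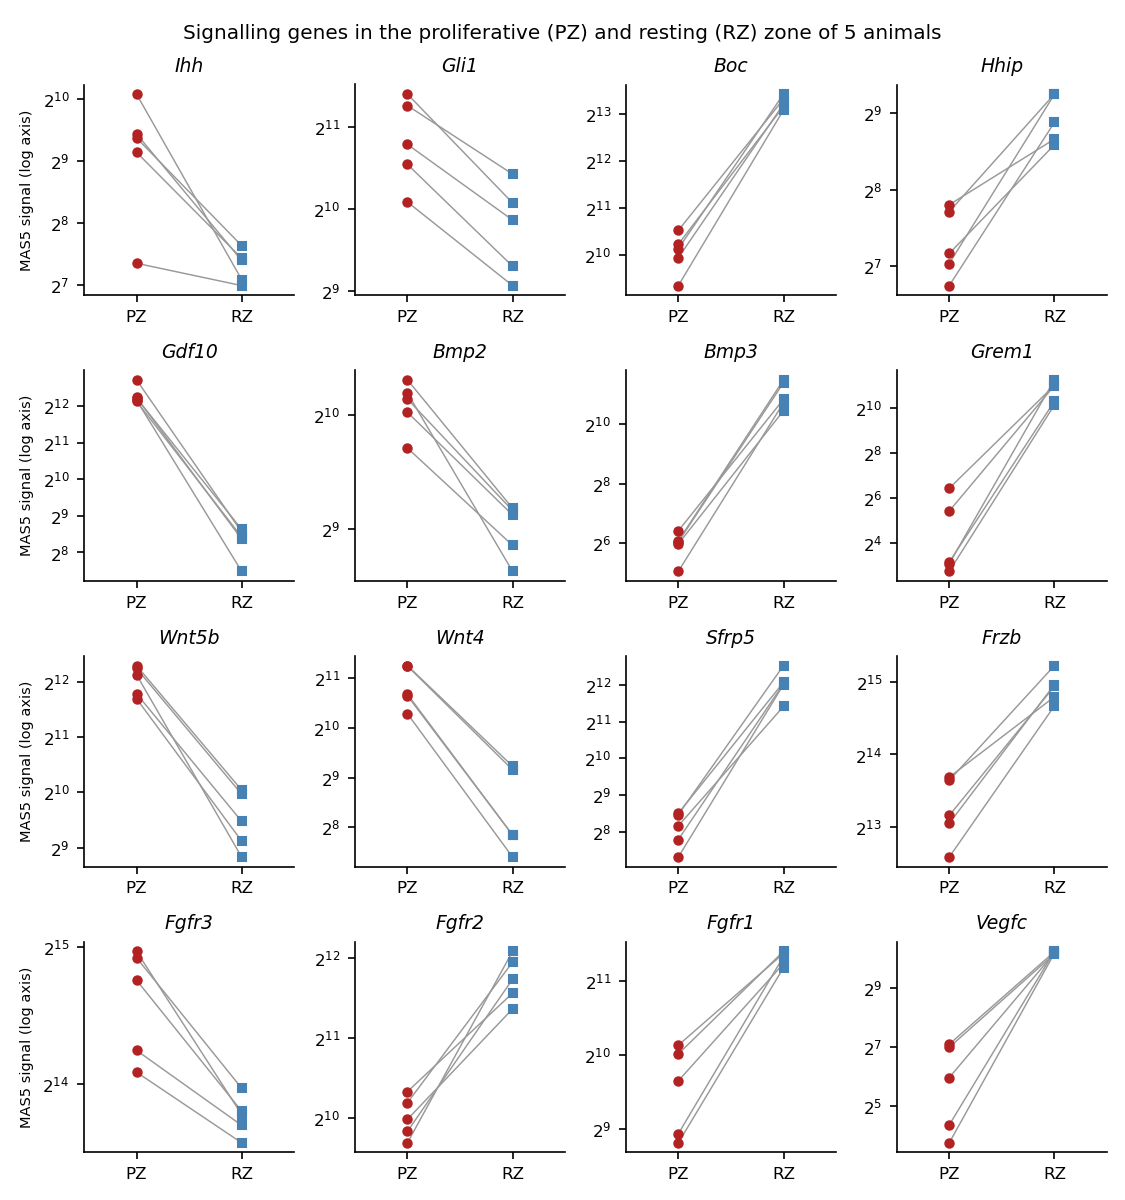
MAS5 signal (log axis) of 16 signalling genes in the proliferative zone (PZ, red circles) and the resting zone (RZ, blue squares), with a line for each of the 5 animals. Ihh, Gli1, Gdf10, Bmp2, Wnt5b, Wnt4 and Fgfr3 lie higher in the proliferative zone and the other 9 genes lower in every animal.

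Of 7 vascular endothelial growth factor genes, 3 were called lower and 0 higher. Vegfc, a growth factor of lymphatic vessels, had 126, 62, 136, 20 and 13 in the proliferative zone, against 1136, 1155, 1192, 1204 and 1151 in the resting zone (-4.06 ± 0.42, adjusted p = 1.75e-07). Its resting zone values lay within a narrow band and far from the proliferative ones. Nrp1, a co-receptor of these factors and of semaphorins, had 370, 322, 228, 490 and 342 in the proliferative zone, against 1802, 963, 1794, 1949 and 1187 in the resting zone (-2.07 ± 0.21, adjusted p = 9.58e-08). Vegfa fell by 1.04 ± 0.31 (adjusted p = 0.0264), and its call was lost without animal 2, 3, 4 or 5 (adjusted p = 0.0768, 0.0836, 0.129 and 0.0534) and without the replicate block (adjusted p = 0.074). It was also lost without the resting arrays of animals 1, 3 and 5, when 2 of the 7 were called lower.

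Of 27 guidance genes, 4 were called lower and 1 higher, 18.5% against 6.13% of all genes. Ntn1, netrin 1, had 7, 64, 120, 20 and 54 in the proliferative zone, against 838, 478, 503, 470 and 545 in the resting zone (-3.31 ± 0.50, adjusted p = 3.87e-05). Slit3, a secreted Slit ligand, fell by 2.62 ± 0.36 (adjusted p = 1.17e-05), Epha4, an ephrin receptor, by 1.23 ± 0.19, and Sema6a, a transmembrane semaphorin, fell by 1.31 ± 0.32. Unc5b, a netrin receptor, moved opposite to Ntn1, with 794, 810, 589, 2082 and 1218 in the proliferative zone, against 276, 212, 224, 548 and 514 in the resting zone (1.56 ± 0.21, adjusted p = 1.07e-05). Epha4 alone of the 5 overlapped between zones. Of the list, 3 were called lower and 1 higher without the resting arrays of animals 1, 3 and 5.

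Of 36 skeletal transcription factors, 2 were called higher, Runx3 and Dlx5, and 7 lower. Runx1, a relative of Runx3, had 20, 82, 91, 228 and 205 in the proliferative zone, against 759, 296, 507, 1054 and 979 in the resting zone, a 5.79-fold fall (-2.53 ± 0.32, adjusted p = 3.15e-06). Runx1 and Runx3 thus ran in opposite directions, each without overlap. Mef2a, a factor of muscle and hypertrophic chondrocytes, had 1924, 2315, 1282, 2404 and 2379 in the proliferative zone, against 5427, 4961, 5021, 6543 and 6297 in the resting zone (-1.48 ± 0.15, adjusted p = 9.58e-08). Scx, the tendon factor scleraxis, Hoxc9, a positional homeobox gene, Sox11, Tbx4, a hindlimb T-box gene, and Erg, a factor of joint cartilage, fell by 1.09 to 1.35. Calls among these were lost for Hoxc9 without animal 3 (adjusted p = 0.0619), for Sox11 without animal 2 or 3 (0.08 and 0.216), for Tbx4 without animal 1, 2, 3 or 5 (0.0687, 0.068, 0.0542 and 0.0575) and for Erg without animal 1, 2 or 3 (0.0801, 0.134 and 0.254). In the list, 2 were called higher and 3 lower without the resting arrays of animals 1, 3 and 5.

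Of 24 cartilage matrix genes, 1 was called higher and 1 lower, 8.33% against 6.13% of all genes, and the median difference of the 24 was 0.00. Without the resting arrays of animals 1, 3 and 5, 1 was called higher and 0 lower. Matn2, a matrilin that links matrix filaments, had 10470, 8301, 8547, 6648 and 7786 in the proliferative zone, against 1845, 2276, 2421, 1295 and 961 in the resting zone (2.30 ± 0.21, adjusted p = 1.85e-08). Comp, cartilage oligomeric matrix protein, differed by 0.85 ± 0.19 (adjusted p = 0.00298) and Clec3a, a cartilage lectin, by 0.82 ± 0.16 (adjusted p = 0.000842), both separate between zones and below the fold threshold. Cytl1, a small secreted protein of cartilage, was called lower at -1.22 ± 0.41 (adjusted p = 0.0484), and the call was lost without animal 1, 2, 3 or 4 (adjusted p = 0.0911, 0.135, 0.272 and 0.056).

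Of 34 tested collagens and elastic fibre genes outside the cartilage matrix list, 9 were called lower and 2 higher, and 7 and 1 without the resting arrays of animals 1, 3 and 5. Col6a1, a chain of the collagen VI around chondrocytes, had 2681, 2351, 1337, 2176 and 3094 in the proliferative zone, against 11672, 8126, 6361, 12063 and 9135 in the resting zone (-2.03 ± 0.18, adjusted p = 1.21e-08). Its partner chain Col6a2 fell by 1.37 ± 0.17 (adjusted p = 2.96e-06). Fbn1, fibrillin 1 of elastic microfibrils, had 496, 428, 480, 422 and 467 in the proliferative zone, against 1858, 1330, 1672, 1174 and 1323 in the resting zone (-1.63 ± 0.19, adjusted p = 1.11e-06). Lox, the enzyme that crosslinks collagen and elastin, had 488, 1033, 379, 615 and 939 in the proliferative zone, against 1378, 3604, 2447, 6164 and 5610 in the resting zone (-2.35 ± 0.25, adjusted p = 1.9e-07). Each was separate between zones. Col14a1, a collagen on fibril surfaces, Mfap2, a microfibril protein, Loxl1, a relative of Lox, and Fbn2, fibrillin 2, fell (-2.76, -2.50, -2.50 and -2.31). The 2 called higher were Col12a1, another fibril-associated collagen (1.47 ± 0.32, adjusted p = 0.00246), and Col15a1, a basement membrane collagen (1.09 ± 0.15, adjusted p = 1.14e-05), which stood at 0.97 without animal 2. In the same arrays perichondrium and fibroblast markers differed by -0.70 on average, and 3 of the 12 were called lower, among them Col14a1 itself.

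Small leucine-rich proteoglycans, which bind collagen fibrils, split evenly: of 12 tested, 3 were called higher and 3 lower, and 2 and 1 without the resting arrays of animals 1, 3 and 5. Prelp, which anchors matrix to basement membranes, had 4192, 2163, 4901, 4221 and 3593 in the proliferative zone, against 666, 638, 952, 1060 and 817 in the resting zone (2.16 ± 0.27, adjusted p = 2.79e-06). Dcn, decorin, had 433, 308, 256, 238 and 331 in the proliferative zone, against 3207, 2477, 4482, 2992 and 1369 in the resting zone (-3.08 ± 0.31, adjusted p = 9.58e-08). Neither overlapped. Lum, lumican, rose by 1.35 ± 0.33 (adjusted p = 0.00671), while Omd, osteomodulin, and Ogn, osteoglycin, fell (-1.31 and -1.22), with adjusted p of 0.0517 and 0.139 without those arrays. Optc, opticin, rose by 1.06 ± 0.28 with low signals, and its call was lost without animal 2 or 4 (adjusted p = 0.125 and 0.0534). The thrombospondins also ran apart. Thbs3 had 7520, 7466, 7872, 9057 and 6946 in the proliferative zone, against 2467, 2213, 2093, 2377 and 2122 in the resting zone (1.78 ± 0.15, adjusted p = 5.14e-09), and Thbs2 had 561, 434, 421, 510 and 657 in the proliferative zone, against 5835, 4573, 4172, 5392 and 5047 in the resting zone (-3.25 ± 0.27, adjusted p = 6.31e-09). Both pairs of zones were separate.

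The list of joint surface and immature cartilage genes had 5 of 18 called lower and 0 higher, with a median of -0.63, and 3 lower without the resting arrays of animals 1, 3 and 5. Beside Abi3bp and Dcn it included Vit, vitrin, a matrix protein, with 177, 126, 62, 226 and 167 in the proliferative zone, against 1948, 1019, 2629, 908 and 1080 in the resting zone (-3.16 ± 0.30, adjusted p = 4.55e-08). The other 2 were Erg and Pdpn, podoplanin, whose call (-1.03 ± 0.31, adjusted p = 0.0244) was lost without animal 1, 2 or 3 (adjusted p = 0.0929, 0.178 and 0.0612). Of 11 genes that mouse lineage studies used as resting zone markers, 5 were called lower and 0 higher: Grem1, Sfrp5, Efemp1, Cd200 and Apoe. Of the 11, 3 had a difference above 0, and the zones did not overlap for 2 of these 3, Axin2 and Nt5e, a surface nucleotidase (0.72 ± 0.20, adjusted p = 0.0132). Foxa2, a forkhead factor, lay just short of the fold threshold in the lower direction (-0.94 ± 0.18, adjusted p = 0.000917), and Nt5e and Foxa2 were chosen after their values were seen. Without the resting arrays of animals 1, 3 and 5, 3 were called lower, and Cd200 (-1.33, adjusted p = 0.0984) and Apoe (-1.26, adjusted p = 0.293) were not. Cd200, a cell surface glycoprotein, had 304, 413, 364, 481 and 314 in the proliferative zone, against 2025, 1256, 2233, 947 and 1188 in the resting zone (-1.93 ± 0.32, adjusted p = 0.000145). Apoe, an apolipoprotein, fell by 1.43 ± 0.40 (adjusted p = 0.0164), and its call was lost without animal 2 or 3 (adjusted p = 0.0724 and 0.0885). Pdgfra, a growth factor receptor of mesenchymal cells, fell 8.66-fold, with 1132, 960, 565, 653 and 1166 in the proliferative zone, against 6858, 7282, 8367, 7853 and 7545 in the resting zone.

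Of 21 hypertrophy and mineralization genes, 4 were called higher (Panx3, Ihh, Sgms2 and Col10a1) and 4 lower (Fgfr1, Vegfa, Mmp13 and Ibsp). Sgms2, a sphingomyelin synthase needed for bone mineral, had 765, 683, 201, 733 and 562 in the proliferative zone, against 292, 123, 95, 198 and 195 in the resting zone (1.58 ± 0.30, adjusted p = 0.000604). Like Ihh, it was lowest among the proliferative arrays in animal 3. Col10a1, the collagen of hypertrophic cartilage, had 4132, 4898, 1533, 628 and 1939 in the proliferative zone, against 236, 727, 490, 525 and 2136 in the resting zone (1.70 ± 0.46, adjusted p = 0.0138), with overlap. Its call was lost without animal 1, 2 or 3 (1.11, 1.44 and 1.72, adjusted p = 0.114, 0.11 and 0.0553). Mmp13, a collagenase, had 861, 241, 770, 615 and 1178 in the proliferative zone, against 19420, 1372, 2875, 784 and 1769 in the resting zone (-1.94 ± 0.64, adjusted p = 0.0449), and its call was lost without animal 1, 2 or 3 (-1.31, -1.82 and -1.96, adjusted p = 0.237, 0.0784 and 0.129). The high Mmp13 value came from the resting array of animal 1, the array with most osteoclast marker signal. Ibsp, bone sialoprotein, fell by 1.39 ± 0.39, and its call was lost without animal 3 or 4 (adjusted p = 0.0591 and 0.0624). Without the resting arrays of animals 1, 3 and 5, 3 members were called higher and 1 lower.

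Of 26 proteases and inhibitors, 5 were called lower and 0 higher, and 2 of the 26 without the resting arrays of animals 1, 3 and 5. The 5 are 19.2% of the list, against 6.13% of all genes. Mmp16, a membrane-bound metalloproteinase, had 627, 422, 566, 456 and 606 in the proliferative zone, against 2593, 1594, 2638, 1653 and 1314 in the resting zone (-1.80 ± 0.27, adjusted p = 3.72e-05), without overlap. Mmp9, a gelatinase of osteoclasts, had 182, 52, 262, 175 and 484 in the proliferative zone, against 12238, 579, 1220, 421 and 925 in the resting zone (-2.67 ± 0.73, adjusted p = 0.0149). That call was lost without animal 1 (-1.84, adjusted p = 0.115). The others called lower were Serpine2, Mmp13 and Mmp23, a metalloproteinase, whose call (-1.02 ± 0.32, adjusted p = 0.0324) was lost without animal 1, 2, 3 or 5 (adjusted p = 0.109, 0.139, 0.0868 and 0.0586). The call of Mmp13 was lost without animal 1, 2 or 3 (adjusted p = 0.237, 0.0784 and 0.129).

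Of 57 tested mitosis genes, 55 had a difference above 0 and the median was 0.74, against 0.02 over all genes. Of the 57, 18 passed the adjusted p in the higher direction at any fold and 0 in the lower, where 8.18% of all genes were higher and 7.42% lower, and 8 were also past 2-fold. All 40 tested DNA replication genes had a difference above 0, with a median of 0.56. Of these 40, 11 passed at any fold and 1, Exo1, was called, and 3 were called without the resting arrays of animals 1, 3 and 5. Rrm1, a subunit of ribonucleotide reductase, had 3482, 2959, 4093, 1960 and 2854 in the proliferative zone, against 1895, 1668, 1660, 1083 and 1370 in the resting zone (0.98 ± 0.25, adjusted p = 0.00822), just short of the fold threshold and without overlap. Mcm7, of the replicative helicase, and Lig1, a DNA ligase, differed by 0.66 ± 0.18 and 0.56 ± 0.15 (adjusted p = 0.012 for both). Of 25 D cyclins, cyclin-dependent kinases and their inhibitors, limma called 0, while 8 had an unadjusted p under 0.05, near the 29.6% of all genes that did, and 1 passed the adjusted p at any fold, Gadd45g (0.54 ± 0.17, adjusted p = 0.0335).

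Ttk, the kinase of the spindle checkpoint, had 1011, 729, 717, 604 and 593 in the proliferative zone, against 363, 234, 268, 160 and 255 in the resting zone (1.47 ± 0.35, adjusted p = 0.00455). The other Ttk probe set differed by 0.63 and was not called. Cks2, a small partner of cyclin-dependent kinases, had 3256, 2213, 2651, 1673 and 2463 in the proliferative zone, against 1800, 897, 1128, 727 and 1122 in the resting zone (1.13 ± 0.15, adjusted p = 8.54e-06). Melk, a mitotic kinase, had 1507, 1305, 1538, 1273 and 1468 in the proliferative zone, against 789, 758, 743, 421 and 561 in the resting zone (1.13 ± 0.23, adjusted p = 0.00137). Each was higher in all 5 animals, and Cks2 alone of the 3 overlapped. Exo1, an exonuclease of DNA repair, rose by 1.38 ± 0.27 (adjusted p = 0.000944). Pttg1, securin, rose by 1.17 ± 0.34 and Kif18a, a kinesin of chromosome alignment, by 1.13 ± 0.30. Spc24 and Spc25, kinetochore proteins, rose by 1.07 ± 0.32 and 1.01 ± 0.31, and Mad2l1, a checkpoint protein, by 1.02 ± 0.30. Each of these 5 calls was lost without at least 3 of the single animals, with the highest adjusted p being 0.091 for Pttg1 without animal 2, 0.074 for Kif18a without animal 3, 0.0878 for Spc24 without animal 5, 0.107 for Spc25 without animal 3 and 0.113 for Mad2l1 without animal 3. Between 3 and 8 mitosis genes were called when 1 animal was left out, the lowest without animal 3, and 2 were called without the resting arrays of animals 1, 3 and 5.

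Promoters of cell cycle genes were examined because many late cell cycle genes are known to carry a CCAAT box beside a cell cycle homology region, written here as TTTGAA, through which they are kept off outside the late cycle. RefSeq promoters of build GRCr8, each 300 bases from 250 before to 50 after the gene start, were searched on both strands for these letters, which do not overlap each other. Both motifs stood in 29 of 50 promoters of the tested mitosis genes that had one (58.0%), in 2 of 37 of the DNA replication genes (5.41%), in 418 of 8839 of all tested genes (4.73%) and in 1991 of 27457 of all promoters (7.25%). All 8 called mitosis genes had a promoter, and 4 of the 8 held both motifs: Ttk (chr8:93634489-93634668, plus strand), Cks2 (chr17:13727490-13727669, minus strand), Spc25 (chr3:74396689-74396868, minus strand) and Pttg1 (chr10:28406297-28406476, minus strand). These 4 are printed from 150 bases before to 30 after the start, 5′ to 3′ on the gene's strand, with both motifs in capitals, read as ATTGG and TTCAAA where they lie on the other strand.
Ttk: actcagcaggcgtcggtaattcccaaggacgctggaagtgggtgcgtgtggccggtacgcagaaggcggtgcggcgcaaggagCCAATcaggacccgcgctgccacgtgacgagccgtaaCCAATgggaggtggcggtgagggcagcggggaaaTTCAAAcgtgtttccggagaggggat
Cks2: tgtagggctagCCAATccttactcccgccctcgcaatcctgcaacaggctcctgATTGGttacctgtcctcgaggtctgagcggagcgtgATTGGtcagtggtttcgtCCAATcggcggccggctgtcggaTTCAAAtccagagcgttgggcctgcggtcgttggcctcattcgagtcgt
Spc25: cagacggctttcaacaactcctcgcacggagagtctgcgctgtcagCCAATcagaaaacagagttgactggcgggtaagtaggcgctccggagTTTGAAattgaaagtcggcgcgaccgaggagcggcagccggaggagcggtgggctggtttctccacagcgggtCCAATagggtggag
Pttg1: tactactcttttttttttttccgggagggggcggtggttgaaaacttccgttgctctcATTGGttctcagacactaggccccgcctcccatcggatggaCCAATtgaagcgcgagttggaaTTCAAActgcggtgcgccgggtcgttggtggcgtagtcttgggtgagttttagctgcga
The homology region lay 19 bases before the start in Cks2, 29 in Pttg1 and 57 in Spc25, and just after the start in Ttk. Cks2 held 4 CCAAT boxes in the window and the other 3 genes held 2 each. A match is a description of letters and was not tested as a binding site.

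Among enzymes of glycosaminoglycan synthesis, 1 of 29 was called higher and 2 lower, where 2.15% of all genes were higher and 3.98% lower, and 0 and 2 without the resting arrays of animals 1, 3 and 5. Ugdh, which makes the UDP-glucuronate building block of these chains, had 12982, 9752, 12667, 7743 and 8484 in the proliferative zone, against 3927, 6523, 5446, 3711 and 3542 in the resting zone (1.17 ± 0.17, adjusted p = 3.36e-05), without overlap. It stood at 0.87 without those 3 arrays. Papss2, which supplies active sulfate, differed by 0.73 ± 0.15 (adjusted p = 0.00171). The other Papss2 probe set differed by 1.15 and was called higher. Csgalnact2, which starts chondroitin chains, fell by 1.20 ± 0.18, and Sulf2, which trims sulfate from heparan chains, by 2.02 ± 0.34. Of 40 genes for protein folding and collagen processing in the endoplasmic reticulum, 0 were called higher and 1 lower (2.50% against 6.13% of all genes), the same counts as without those arrays. The one was Ero1b, an oxidase of disulfide formation (-2.11 ± 0.37, adjusted p = 0.00022). Sec23b, of the coat of export vesicles, differed by 0.65 ± 0.13 (adjusted p = 0.000903). In the carbonic anhydrase, annexin and S100 list, 5 of 22 were called higher and 2 lower, and 6 and 1 without those arrays. Anxa8 had 10067, 9114, 5922, 6909 and 7968 in the proliferative zone, against 2462, 2465, 1805, 2963 and 2438 in the resting zone (1.71 ± 0.17, adjusted p = 8.82e-08), and S100a6, a calcium-binding protein, had 4164, 2293, 3427, 3020 and 3873 in the proliferative zone, against 1468, 589, 527, 795 and 706 in the resting zone (2.08 ± 0.20, adjusted p = 5.57e-08). Both were separate between zones. Car8, Anxa7 (1.17 ± 0.14, adjusted p = 2.06e-06) and S100a4 were the other risers, and S100a16 (-1.35 ± 0.21, adjusted p = 6.8e-05) and Car14 the ones that fell. The call of S100a4 was lost without animal 2, 3 or 5 (adjusted p = 0.222, 0.0836 and 0.103) and that of Car14 without animal 2, 3 or 5 (adjusted p = 0.121, 0.0538 and 0.136).

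Of 28 glycolysis and hypoxia-induced genes, 3 were called lower and 0 higher, where 3.98% of all genes were lower and 2.15% higher: Vegfa, Adm, which encodes the vessel-dilating peptide adrenomedullin, and Slc2a3, a glucose transporter. Adm fell by 1.64 ± 0.46, and its call was lost without animal 2, 3 or 5 (adjusted p = 0.0958, 0.0698 and 0.0581). Slc2a3 fell by 1.09 ± 0.35, and its call was lost without animal 2, 3, 4 or 5 (adjusted p = 0.0831, 0.105, 0.116 and 0.0744). Without the resting arrays of animals 1, 3 and 5, 0 of the 28 were called in either direction. Aldoc, a glycolytic aldolase, was higher in all 5 animals at 1.00 ± 0.23 (adjusted p = 0.00348), at the edge of the fold threshold. Of 22 immediate-early and stress genes, 2 were called higher and 1 lower, 13.6% against 6.13% of all genes, and 1 and 0 without those arrays. Fos, an immediate-early transcription factor, had 556, 2642, 361, 1098 and 1125 in the proliferative zone, against 305, 244, 103, 310 and 429 in the resting zone (1.80 ± 0.35, adjusted p = 0.000791), with an array of animal 2 far above the rest. Myc, a growth-promoting transcription factor, rose by 1.25 ± 0.33 (adjusted p = 0.0101), and its call was lost without animal 2 (adjusted p = 0.0572). Hspb8, a small heat shock protein, was called lower at dim signals (adjusted p = 0.0347), and its call was lost without animal 1, 3 or 5 (adjusted p = 0.136, 0.244 and 0.107).

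Of 33 channel, junction and adhesion genes, 2 were called higher, Panx3 and Cldn10, and 5 lower. These calls are 21.2% of the list, against 6.13% of all genes. Panx3, Cldn10 and Cldn11 are also among the 20 largest rises or falls, and the list was chosen with earlier results known. Cdh10, a cadherin best known from the nervous system, had 40, 58, 16, 6 and 142 in the proliferative zone, against 397, 613, 420, 852 and 326 in the resting zone (-3.23 ± 0.54, adjusted p = 0.000132). Cdh13, a cadherin without a transmembrane part, fell by 1.71 ± 0.43, Cdh11, a mesenchymal cadherin, by 1.86 ± 0.49, and Lama2, a laminin chain, by 1.42 ± 0.25. The other probe set of Cdh11 differed by 0.31 and was not called, so the probe sets of this gene disagree. The call of Cdh11 was lost without animal 1 (adjusted p = 0.0577), and 3 members were called lower without the resting arrays of animals 1, 3 and 5.

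**Figure D5:**
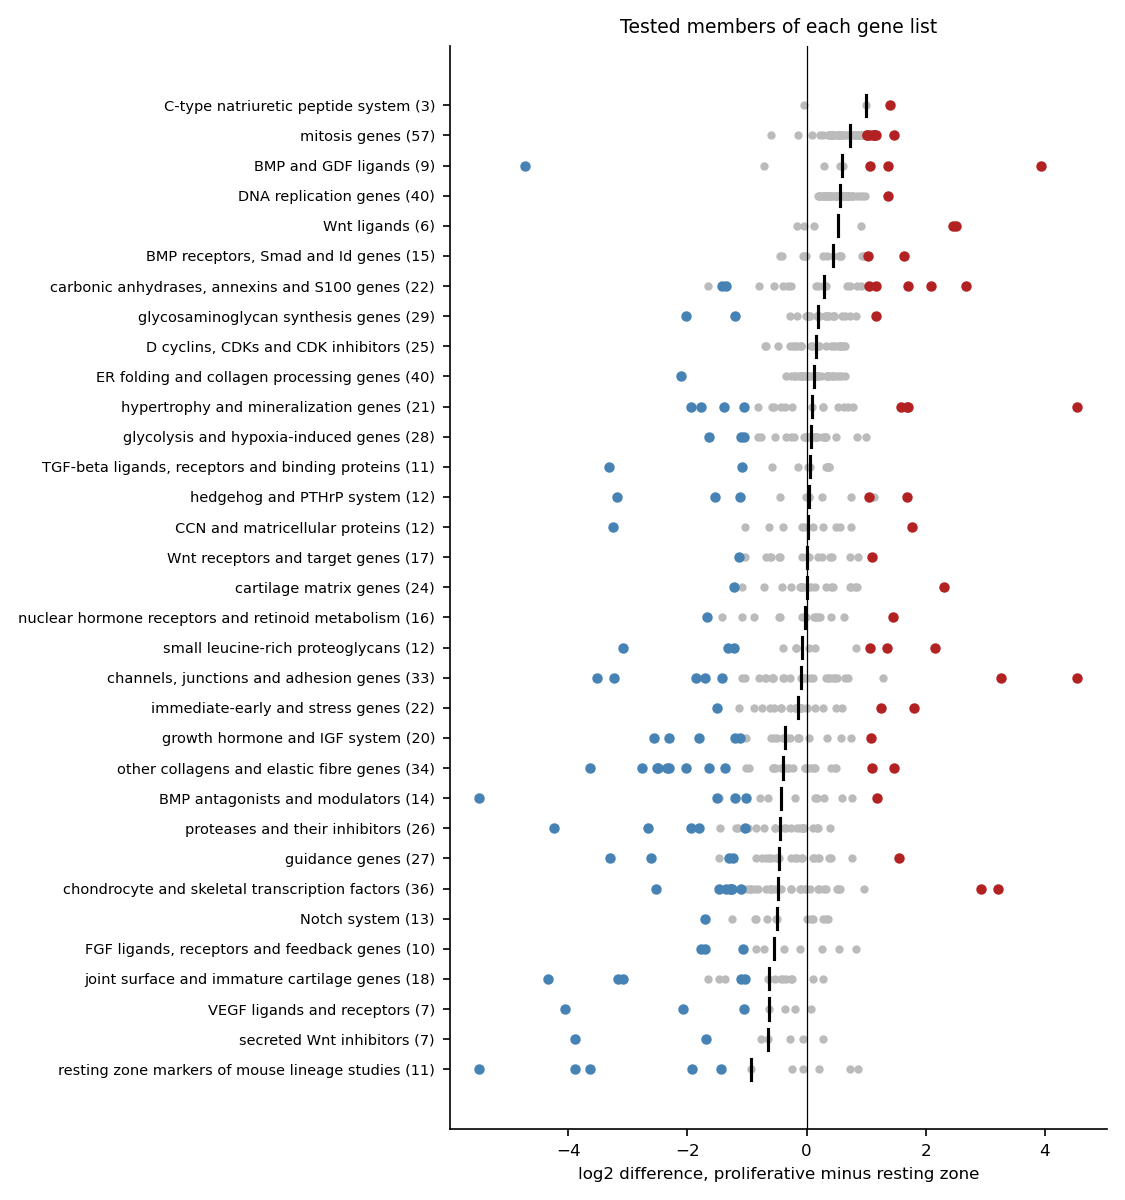
Log2 difference, proliferative minus resting zone, of every tested member of 33 gene lists, ordered by the list median (black bar), with the number tested in brackets. Red points were called higher in the proliferative zone, blue points lower, and grey points were not called. Mitosis genes have a median of 0.74 and mouse resting zone markers one of -0.94.

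Levels in the other zones, given as a description with no test, place these genes along the plate (n = 5 per zone, and 4 for epiphyseal cartilage). Gdf10 averaged 5086 ± 934 in the proliferative zone and 325 ± 86 in the resting zone (SD), with 1183 ± 967 in transition arrays, 74.8 ± 51.4 in hypertrophic arrays and 88.4 ± 31.1 in epiphyseal cartilage. The proliferative zone held the highest of these levels. The same held for Gli1, with 1901 ± 669 in the proliferative zone, 912 ± 340 in the resting zone, 371 ± 137 in transition arrays and 45.5 ± 26.1 in hypertrophic arrays, and for Matn2, with 8350 ± 1392 in the proliferative zone, 1760 ± 625 in the resting zone and 5863 ± 671 in transition arrays. Runx3 averaged 4294 ± 998 in the proliferative zone and 3077 ± 871 in the transition zone, and this gap was not tested.

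Other risers were higher still in the transition zone. Panx3 averaged 7644 ± 2618 in the proliferative zone and 305 ± 77 in the resting zone, with 30630 ± 6423 in transition arrays and 33020 ± 10260 in hypertrophic arrays. Ihh averaged 635 ± 330 in the proliferative zone and 161 ± 29 in the resting zone, with 8285 ± 2254 in transition arrays and 10410 ± 2496 in hypertrophic arrays, and Wnt4 averaged 1867 ± 534 in the proliferative zone and 359 ± 207 in the resting zone, with 8467 ± 1779 in transition arrays and 6529 ± 2387 in hypertrophic arrays. Each was lower in the proliferative zone than in the transition zone by more than these spreads. Among genes that fell, Grem1, Bmp3, Abi3bp, Vegfc and Thbs2 were also at high levels in epiphyseal cartilage, with means of 3074 ± 777, 1421 ± 528, 3966 ± 977, 992 ± 189 and 6872 ± 1665. Sfrp5 averaged 276 ± 87 in the proliferative zone and 4243 ± 1123 in the resting zone, with 789 ± 142 in epiphyseal cartilage and 112 ± 43 in the transition zone, so its resting zone level stood above all of the others.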

How the data were processed

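Cartilage RNA (50 to 100 ng of total RNA per sample) was amplified, labelled with biotin and hybridised to Affymetrix arrays, per the labels' protocols. The authors deposited intensity values: for each probe set, a linear MAS5 signal, a tool that the submitters' processing notes name. Its version is not stated in what was read here. With 2% of the probe sets trimmed at each end, the mean signal was 500.1 to 500.2 in every array, and array medians ran from 135.3 to 244.6. Detection calls were not used, so a low signal has no known lower bound, and the number of arrays limits the precision.

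From these values, log2(signal + 16) was taken with no further normalization. Of 31099 probe sets, 57 were controls and left out. Testing required a signal over the array median in 4 or more of the 24 arrays, which 61.9% met. Platform annotation, brought up to date through gene identifiers against the GRCr8 rat gene table, gave 1 symbol to 13956 tested probe sets (13916 of them in the current table), several to 323 and none to 4934. The brightest tested probe set, by mean log2 signal over all arrays, stood for its gene. Of 52 named genes with several tested probe sets, 36 were called, and in 35 of these all probe sets had the same sign. The same sign is not the same size, and for several called genes another probe set was not called. The probe set furthest from the one used differed by 0.06 for Anxa7, 0.32 for Bmp2, 0.23 for Htra3 and 0.81 for Runx3. For Smad1, Ttk and Igfbp5 it differed by 0.75, 0.63 and -0.06. For Fgfr2 and Igf1 it differed by -0.84 and -1.18 and was not called. List members on the array that failed the filter, and those with no probe set named for them, were not analysed here. Tested members that are not named enter the counts.

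The contrast was fitted with limma 3.58.1 in R 4.3.3 (lmFit with zone and animal as terms on all 24 arrays, then eBayes with a trend, 15 residual degrees of freedom). Benjamini-Hochberg adjustment covered all 19213 probe sets, and the test was tried on simulated data first. The animal was kept as a replicate block because the labels give both zones of 1 number to the same animal. Deviations from the zone mean correlated between same-numbered arrays at 0.202 to 0.311 (5 pairs), against a median of -0.103 between numbers (20 pairs). Within a zone, arrays shared at most 15 identical values and differed by a root mean square of at least 0.617, so none was a copy. Means of marker lists were compared with an exact two-sided sign-flip test over 5 animals. P-values measure how zone differences within an animal vary over these animals only. Those of limma also draw on the arrays of the other zones and, through eBayes, on all tested probe sets.

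The members, gene lists, markers and tests were chosen with earlier results of these data known. By rule, the genes named come from the 20 called genes that rose most and the 20 that fell most while moving the same way in all 5 animals, every called list member, uncalled members of smallest adjusted p where fewer than 4 were called, every tested hedgehog member and defining cell type markers. Not all of the uncalled members and markers are named. The alternatives were other pseudocounts, normalizations, filters, blocks and variance settings, only the 10 arrays compared, and leaving out each animal. The settings without resting arrays of animals 1, 3 and 5 were chosen after the data were seen. Plots came from matplotlib 3.10.9 under Python 3.11.15.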

Additional observations from a re-analysis of the deposited data

Results flagged for a closer look

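In each zone, the highest and lowest of the 5 arrays were compared with the other 4 for 386 sets of values (named genes and marker lists), and an array was singled out when its gap to the nearest other array exceeded 0.71 of the whole range (Dixon's 95% value for 5 samples). This picked out 23 values. Chance alone picks about 1 in 20 sets, so the number as such is near what chance gives, and no explanation was weighed.

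Among genes of the signalling lists, Gdf10 in the proliferative array of animal 3 stood at 6738.1 with the others between 4494 and 4823, and Gdf10 in the resting array of animal 1 stood at 179.0 with the others between 329.7 and 396.7. Smad1 in the proliferative array of animal 5 was low at 1302.7, with the others from 2290 to 2773, and in the resting array of animal 1 it was high at 795.5, with the others from 676.5 to 694.1. Irs1 was low in the proliferative array of animal 5 at 381.7, and Tcf7 was high in the resting array of animal 4 at 268.8. Ntn1 was high in the resting array of animal 1 at 837.6, and Ret was low there at 66.3.

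The proliferative array of animal 3 was low for Sgms2 (200.9, the others from 561.5 to 765), Sufu (59.5), Rxrg (166.0) and Thra (217.3). The resting array of animal 3 was high for Cpa6 (306.8) and Vstm4 (112.9). The resting array of animal 1 was also high for Scd (376.1) and Spc25 (1136.6). In the proliferative array of animal 2, Mmp23 (144.3), Pdpn (185.1) and Mcm7 (2264.5) were low, and in that of animal 4, Kif18a (155.2) and S100a4 (899.0) were low. Itgbl1 was low in the resting array of animal 4 (1907.4). The leukocyte list had a mean log2 signal of 8.08 in the proliferative array of animal 5, with the others from 6.56 to 6.89. The zones of Gdf10, Smad1, Itgbl1, Ntn1, Ret, Cpa6, Vstm4, Scd, Irs1, Tcf7, Thra, Mmp23, Pdpn and Spc25 did not overlap. For Sgms2, Kif18a, Rxrg and Mcm7, the singled-out proliferative array alone lay below the highest resting signal (292.3, 195.3, 210.2 and 2503.1). The zones of Sufu, S100a4 and the leukocyte list overlapped with or without the singled-out array.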

How the results depend on the processing

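Counts of probe sets called ran from 264 to 494 higher and from 449 to 909 lower over the planned settings, against 378 and 792. The lower count moved by more than 1.5 times with a filter at the 75th percentile, which tested 10061 probe sets (449), and without the resting arrays of animals 1, 3 and 5, which leaves 2 resting arrays (404). The share of calls that were higher, 32.3%, was 37.3% after quantile normalization, 42.6% after scaling to one median, 37.0% with the 75th percentile filter and 39.2% without those 3 arrays, and the cause was not tested. Leaving out 1 animal gave 307 to 365 higher, 630 to 742 lower and shares of 30.9% to 34.7%. Without the replicate block, 339 were called higher and 702 lower, and 15 named calls were lost at an adjusted p of 0.0504 to 0.234: Acta1, Apoe, Bmp5, Cytl1, Erg, Gli1, Hspb8, Ibsp, Mmp13, Mmp23, S100a4, S100a8, S100a9, Slc2a3 and Vegfa. With the animal as a random block the counts were 381 and 790, and Acta1, S100a8 and S100a9 lost their calls.

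Of the 148 named genes that were called, 104 were called in every planned setting that tested them and 105 whichever single animal was left out. Without the resting arrays of animals 1, 3 and 5, 52 of the 148 calls were lost. No called gene named in the text changed sign. Uncalled genes near 0 did. Col2a1 was at 0.0162 after scaling, 0.266 without the 3 arrays and at -0.186 to 0.0795 without 1 animal. Dhh was at -0.0054 with a pseudocount of 1, -0.086 with array weights, -0.631 without the 3 arrays and -0.247 to 0.329 without 1 animal. Disp1 was at 0.062 after quantile normalization, 0.088 after scaling and -0.032 to 0.023 without 1 animal, Npr2 was at 0.0564 after scaling, 0.0064 with array weights, 0.1479 without the 3 arrays and -0.1461 to 0.0649 without 1 animal, and Stk36 at -0.012 with a pseudocount of 1, -0.034 without the 3 arrays and -0.062 to 0.323 without 1 animal. No detection calls were used, so the size of a difference at dim signals, as for Grem1, Ret and Igf1, rests on the pseudocount.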

Other observations

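The gene families below were chosen after their values were seen, and 6.13% of all genes tested were called in either direction. Some members were also counted above, among them Slc2a3 and Hoxc9, so these counts are not separate observations. Of 196 solute carriers, which move small molecules across membranes, 4 were called higher and 9 lower, with a median difference of 0.04 on the log2 scale. A mixed set of 34 lipid genes took in phospholipases, a phospholipase receptor, a transfer protein, and lipid synthesis and its regulation. Of these 34, 5 were called higher and 1 lower, with a median of 0.35. The 5 were Fads3, Insig1, Pla2r1, Pltp and Scd, and the other one was Pla2g5. Pla2r1, Pltp and Scd were already named among the 20 largest rises. The set was put together with their values known, so its count is no separate result on lipid genes. Of 14 Hox genes, 0 were called higher and 3 lower, namely Hoxc4, Hoxc8 and Hoxc9, all from the C cluster.

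Of 41 proteasome subunits, 35 had a difference above 0, with a median of 0.37, and of 42 subunits of the NADH dehydrogenase, 36 did, with a median of 0.26. Of 46 ribosomal protein genes, 27 did, with a median of 0.03. In these families limma called 0 genes, while 22 (proteasome), 12 (NADH dehydrogenase) and 1 (ribosomal) members had an unadjusted p under 0.05, as had 29.6% of all genes, a share that the 12 of 42 do not pass. The median over all genes was 0.02, and the median of all probe sets was -0.02 here and 0.08 after scaling to one median.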
